A study of Mus musculus with 6 samples.

Results

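The extracellular matrix genes described here encode laminin chains and the proteins that link and anchor them, collagens other than type IV, the procollagen C-proteinase enhancers, and matrix glycoproteins and proteoglycans. Their expression was compared between adult retinas of OC2-KO mice and of wildtype littermates (OC2-WT). Each of the 38 genes was chosen by its gene symbol in the array's annotation, among 18193 genes with 1 symbol, and the probe set with the highest mean over all arrays stood for it. All 38 were on the array, on 78 probe sets, and 21 passed an expression filter that required a mean log2 intensity above 7 in either genotype. The filter left 11065 genes in all, and differences are given throughout as log2 intensity of OC2-KO minus OC2-WT.

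The study hybridised 6 Affymetrix Mouse Genome 430 2.0 arrays with RNA amplified from total RNA of dissected retinas. OC2-KO mice carried a null allele of Onecut2 in every tissue, and OC2-WT mice were their wildtype littermates, with 3 arrays of each genotype. The labels gave adult mice and no age in days, and they did not say whether each array was a separate animal. Probes for Onecut2 cover its 3' end, outside what the null allele removes, and so give no check of the genotypes. P-values below measured only the spread between these arrays, which may have been technical.

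Basement membranes are thin sheets of matrix under epithelia, around vessels and, in the retina, at the inner limiting membrane on which Müller glia rest their endfeet. Laminins are trimers of 1 alpha, 1 beta and 1 gamma chain that form one network of the sheet. Nidogens, perlecan and agrin connect that network to collagen and to the cell surface, and integrins bind it from the cell. Fibrillar collagens are made as procollagens, whose C-terminal propeptide is cut off by BMP1-like proteinases with the help of the enhancer proteins PCOLCE and PCOLCE2. Small leucine-rich proteoglycans such as biglycan and decorin bind the resulting fibrils.

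Among these genes, Lad1 and Pcolce stood highest in OC2-KO relative to OC2-WT, at 1.64 and 2.15 on the log2 scale, and Bgn followed at 0.97. These 3 members did not overlap between genotypes, and in all 3 every OC2-KO array was above every OC2-WT array. Among members past the filter, the brightest probe sets of the laminin chains, the fibrillar and other collagens, fibronectin and tenascin-C overlapped between genotypes. No member passed an adjusted p of 0.05 in limma (Benjamini-Hochberg over all probe sets past the filter), and the share of all genes tested that did was 0%. At an unadjusted p of 0.05, 2 members were higher in OC2-KO, against 0.732% of all genes tested, and 0 were lower, against 0.253%. The genotypes did not overlap with OC2-KO higher in 3 members, against 1.95% of all genes tested, and with OC2-KO lower in 0 members, against 1.83%. Members were chosen with earlier results of these data known, so these counts and the shares beside them are a description and no test. The counts have a further limit in the filter. Lad1 and Bgn passed it through OC2-KO alone, where they were high, and Lamc1, Itga6 and Col5a1 through OC2-WT alone, while the other 16 passed in both.

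**Figure D1:**
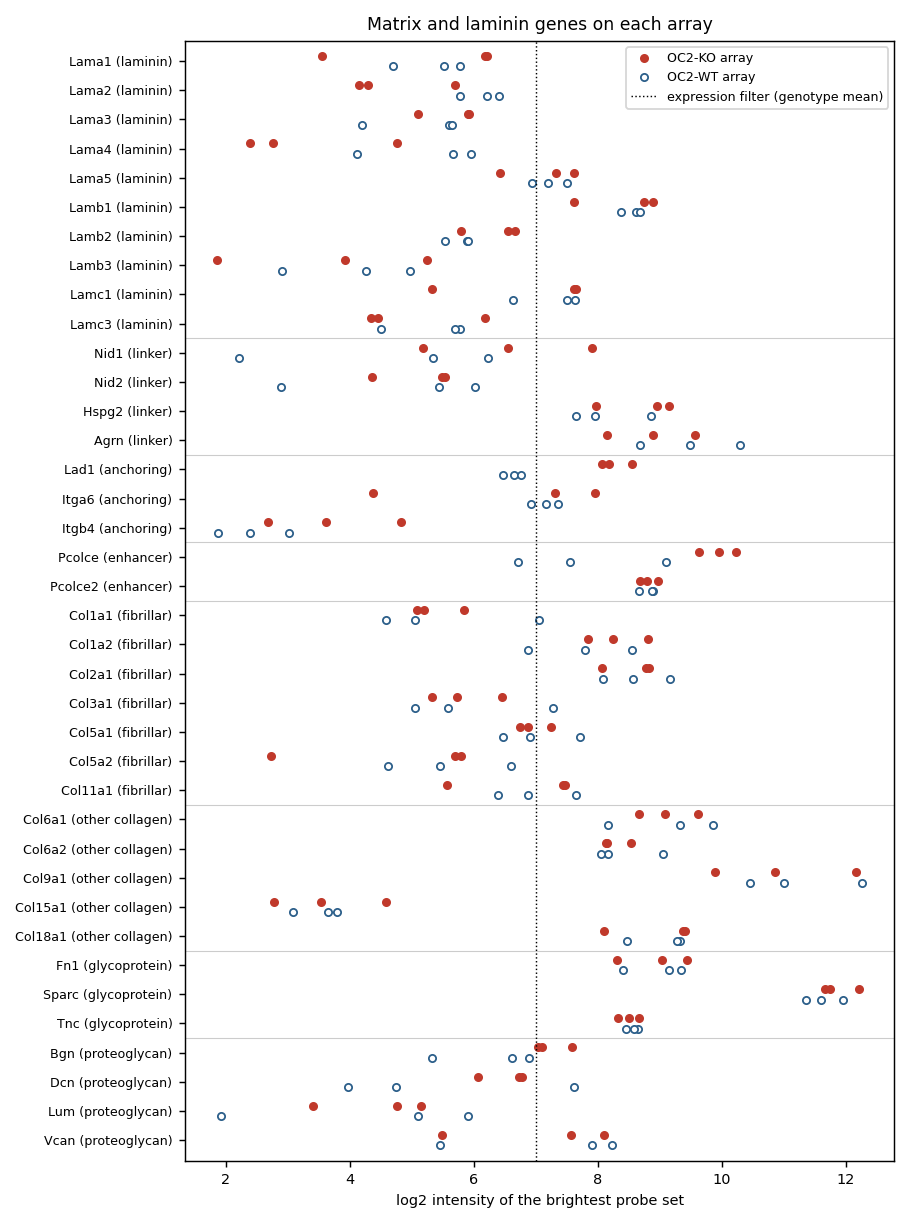
Log2 intensity (x axis) of the brightest probe set of all 38 members (rows, grouped by role) on each array, with OC2-KO arrays as filled circles above OC2-WT arrays as open circles and the filter of 7 on a genotype mean as a dotted line. Lad1, Pcolce and Bgn are the rows past the filter whose filled circles all lie right of the open ones.

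LAD1 (ladinin) is a protein of the anchoring filaments that hold epithelial cells to their basement membrane. The 3 OC2-KO arrays read 8.55, 8.07 and 8.18 log2 units for Lad1, against 6.65, 6.46 and 6.76 on the 3 OC2-WT arrays. Every OC2-KO array was at least 1 log2 unit above every OC2-WT array, and the OC2-WT mean was below the filter. The mean was 8.27 ± 0.25 in OC2-KO and 6.62 ± 0.15 in OC2-WT (SD, n = 3 each), a fold of 3.12. The 95% interval of the difference ran over 1.11 to 2.17, with an unadjusted limma p of 0.000149 and an adjusted p of 0.56. Array numbers were taken to pair the genotypes, though over the members alone the pairing was weak (as given with the processing). Within pairs the difference was 1.90, 1.60 and 1.42. With the replicate block the adjusted p was 0.32, still short of the threshold. The other anchoring members were the laminin-binding integrin subunits. Itga6, the alpha subunit, read 4.37, 7.96 and 7.31 in OC2-KO and 7.17, 7.35 and 6.92 in OC2-WT. Only OC2-KO replicate 1 was low, the other 2 OC2-KO arrays overlapped OC2-WT, and the difference of -0.60 became 0.49 without that array. Itgb4, the beta subunit that joins it in hemidesmosomes, did not pass the filter.

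PCOLCE binds the propeptide of fibrillar procollagens and speeds its removal. Pcolce read 10.22, 9.63 and 9.96 log2 units in OC2-KO and 6.71, 7.54 and 9.11 in OC2-WT. The OC2-KO arrays lay close together, whereas the OC2-WT arrays were spread widely and replicate 3 came nearest to OC2-KO. The mean was 9.94 ± 0.30 in OC2-KO and 7.79 ± 1.22 in OC2-WT (SD, n = 3 each), a fold of 4.44 with a 95% interval of the log2 difference of 0.80 to 3.49. The unadjusted limma p was 0.00676 and the adjusted p 1.00 with or without the replicate block. Leaving out OC2-WT replicate 3 gave a difference of 2.81 and leaving out OC2-WT replicate 1 gave 1.61. A second probe set for Pcolce had the same ordering, with 9.47, 9.32 and 9.11 in OC2-KO and 6.98, 7.35 and 8.29 in OC2-WT, a difference of 1.76. Again the OC2-WT arrays varied most and OC2-WT replicate 3 was the highest of them. Both probe sets carry the suffix that marks probes shared by several transcripts of 1 gene, and both read the same RNA, so they are not independent samples.

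PCOLCE2 also enhances procollagen processing and is encoded by a separate gene. Pcolce2 read 8.80, 8.69 and 8.98 in OC2-KO and 8.66, 8.90 and 8.88 in OC2-WT. The genotypes were interleaved, and the difference was 0.01 with a 95% interval of -0.48 to 0.49, which lies wholly below the interval of Pcolce. The difference between the 2 enhancer genes was not tested.

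Promoter sequence is shown for the genes whose genotypes did not overlap (Lad1, Pcolce, Bgn) and for the enhancer gene whose genotypes did (Pcolce2). The sequences are the 250 bases before the annotated start, 5′ to 3′ on the strand of the gene, from RefSeq on GRCm38.p6. They were Lad1 on chr1:135818348-135818597 (plus strand), Pcolce on chr5:137611405-137611654 (minus strand), Pcolce2 on chr9:95637378-95637627 (plus strand) and Bgn on chrX:73483351-73483600 (plus strand). Capitals mark GGGCGG on either strand, the GC box that Sp1-family factors bind, and in Bgn 2 of the matches overlap each other.
Lad1: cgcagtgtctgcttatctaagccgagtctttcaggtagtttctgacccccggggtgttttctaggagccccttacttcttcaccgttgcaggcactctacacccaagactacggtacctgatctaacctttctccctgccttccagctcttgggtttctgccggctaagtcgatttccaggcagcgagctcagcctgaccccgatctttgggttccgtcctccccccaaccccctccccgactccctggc
Pcolce: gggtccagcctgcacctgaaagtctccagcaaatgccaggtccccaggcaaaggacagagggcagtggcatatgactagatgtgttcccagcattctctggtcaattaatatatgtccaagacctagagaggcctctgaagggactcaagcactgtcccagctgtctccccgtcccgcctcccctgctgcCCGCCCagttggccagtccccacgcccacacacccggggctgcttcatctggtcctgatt
Pcolce2: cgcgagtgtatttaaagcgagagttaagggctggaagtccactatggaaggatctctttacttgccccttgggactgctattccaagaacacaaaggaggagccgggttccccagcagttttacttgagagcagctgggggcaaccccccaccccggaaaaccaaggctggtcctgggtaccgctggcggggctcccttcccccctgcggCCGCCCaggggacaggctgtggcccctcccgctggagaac
Bgn: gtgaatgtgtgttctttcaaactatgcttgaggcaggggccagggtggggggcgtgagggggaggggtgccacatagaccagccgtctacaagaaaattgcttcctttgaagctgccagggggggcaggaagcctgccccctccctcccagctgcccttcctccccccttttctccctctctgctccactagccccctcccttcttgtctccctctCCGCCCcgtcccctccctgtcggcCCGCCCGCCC
The GC box was found 0 times before Lad1, 1 time before Pcolce, 1 time before Pcolce2 and 3 times before Bgn. It was in 18 of 30 windows of members and in 32.7% of all 32851 promoter windows of this length, which was not tested. Most member windows had a higher GC content than the median of 52.4% over all windows, so these shares are not matched for base content. Some genes had more than 1 window, and those of Tnc and of Col6a2 overlapped. ATCAAT, the core that ONECUT factors bind, was in none of the 4 windows and in 6.72% of all windows. Of the 38 members 24 had a window in the table, 30 windows in all, and 1 of these, before the laminin chain gene Lama2, held ATCAAT. TTCNNNGAA, the motif of STAT factors, was before Pcolce2 and Lamb2 among members and in 7.02% of all windows. TTGCNNAA, bound by C/EBP factors, was before Nid1 and Col6a2 and in 9.56% of all windows. All motifs were searched on both strands, and a missing match says only that these letters are not in this window.

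**Figure D2:**
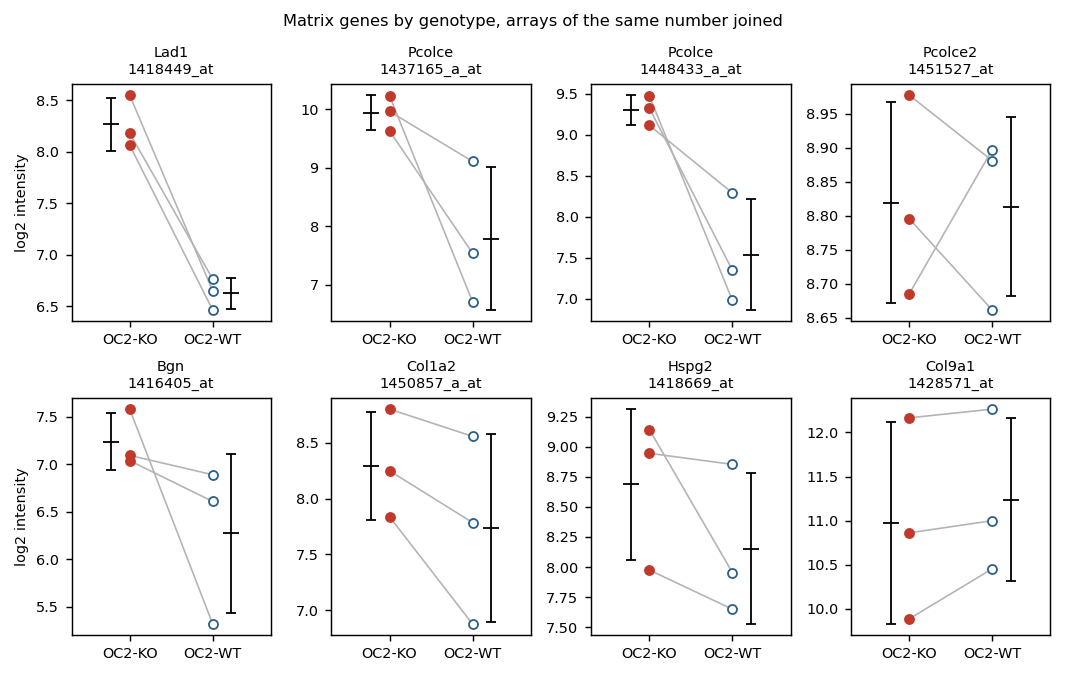
Log2 intensity (y axis, own scale in each panel) of 7 members by genotype, OC2-KO left and OC2-WT right, with arrays of the same number joined and the mean and SD of each genotype drawn beside the points (n = 3); Pcolce has 2 panels, 1 for each probe set past the filter. Lad1, Pcolce and Bgn separate the genotypes, Col1a2 and Hspg2 differ in the same direction in all 3 pairs with overlap, and Pcolce2 does not separate them.

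Bgn encodes biglycan, a proteoglycan of small size that binds collagen fibrils. Bgn read 7.58, 7.04 and 7.10 in OC2-KO and 5.32, 6.61 and 6.89 in OC2-WT. The lowest OC2-KO array was only slightly above the highest OC2-WT array, and OC2-WT replicate 1 stood well below the rest. The difference was 0.97 (95% interval -0.04 to 1.97, unadjusted limma p 0.0573, adjusted p 1.00), with pair differences of 2.27, 0.43 and 0.20. Without OC2-WT replicate 1 the difference was 0.49, so that array decided its size. The other Bgn probe sets, both below the filter, differed by 0.28 and 0.57 with overlapping genotypes. Vcan, the hyaluronan-binding proteoglycan versican, read 5.48, 8.10 and 7.57 in OC2-KO and 5.45, 7.91 and 8.23 in OC2-WT. Replicate 1 was low in both genotypes, and the genotypes overlapped with a difference of -0.15. Decorin and lumican, other fibril-binding proteoglycans, did not pass the filter on Dcn and Lum.

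Of the fibrillar collagens, Col1a2, a chain of type I collagen, was the highest in OC2-KO relative to OC2-WT. It read 7.84, 8.25 and 8.80 in OC2-KO and 6.88, 7.79 and 8.56 in OC2-WT. The genotypes overlapped, but within each pair OC2-KO was the higher, by 0.96, 0.46 and 0.24. The difference was 0.56 (unadjusted limma p 0.263), and with the replicate block the unadjusted p was 0.0324 and the adjusted p 1.00. With that block 3 members, Lad1, Pcolce and Col1a2, had an unadjusted p below 0.05 and were higher in OC2-KO, against 2.15% of all genes tested, and 0 were lower, against 1.38%. This count is likewise a description and no test, as members were chosen with earlier results known. Lad1 passed the filter through OC2-KO alone, and the pairing that the block uses was weak over the members for numbers 1 and 3. Col5a1, a type V chain that sets fibril width, read 6.88, 7.25 and 6.74 in OC2-KO and 6.48, 7.71 and 6.91 in OC2-WT. Both its extremes were OC2-WT arrays, and the difference was -0.08. Col2a1, the type II collagen of vitreous and cartilage, differed by -0.05. Col1a1, Col3a1, Col5a2 and Col11a1 did not pass the filter, so the partner chain of Col1a2 in type I collagen could not be compared.

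Among the collagens that do not form the core of fibrils, Col9a1 lay lower in OC2-KO in all 3 pairs, and it was the only member past the filter to do so. Col9a1 encodes a chain of type IX collagen, which coats type II fibrils and is made in the ciliary epithelium as a vitreous collagen. It read 9.89, 10.86 and 12.17 in OC2-KO and 10.45, 11.00 and 12.26 in OC2-WT. Array number moved the level far more than genotype did, with number 3 highest in both genotypes, and the difference was -0.27 (95% interval -1.83 to 1.29). A second Col9a1 probe set read 8.19, 8.47 and 8.57 in OC2-KO and 8.66, 8.88 and 8.78 in OC2-WT. Here the genotypes did not overlap and OC2-KO was lower by 0.37, with an unadjusted limma p of 0.124. Col6a2, a chain of the beaded-filament type VI collagen, read 8.13, 8.53 and 8.15 in OC2-KO and 8.16, 8.05 and 9.06 in OC2-WT. OC2-WT replicate 3 was the highest array, and the difference of -0.15 became 0.17 without it. Its partner chain Col6a1 differed by 0.00 (95% interval -1.09 to 1.10). Col18a1, the basement membrane collagen from which endostatin is cut, differed by -0.06 on its brightest probe set. Its other probe set past the filter differed by 1.22, where OC2-WT replicate 1 read 4.0 against 7.93 and 8.69 on the other OC2-WT arrays and 7.21, 8.33 and 8.74 in OC2-KO. Col15a1, a related basement membrane collagen, did not pass the filter.

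The laminin chains past the filter were Lama5, Lamb1 and Lamc1, which together can form a single laminin trimer. Their differences were -0.10, -0.14 and -0.39, with overlapping genotypes. Lamb1 read 7.61, 8.74 and 8.89 in OC2-KO and 8.61, 8.38 and 8.68 in OC2-WT. Lamc1 read 5.33, 7.65 and 7.62 in OC2-KO and 6.64, 7.50 and 7.64 in OC2-WT. In both chains OC2-KO replicate 1 was the lowest of all arrays, and without it the differences turned to 0.26 for Lamb1 and 0.38 for Lamc1. A second Lamb1 probe set differed by -0.24. The remaining 7 chains, Lama1, Lama2, Lama3, Lama4, Lamb2, Lamb3 and Lamc3, did not pass the filter. Lamb2 is the beta chain of laminins at the inner limiting membrane and Lama2 is best known from muscle. Lama2 read 4.14, 5.69 and 4.29 in OC2-KO and 6.41, 5.78 and 6.21 in OC2-WT. Every OC2-KO array was below every OC2-WT array, at intensities below the filter. Tested without a filter, Lama2 had an unadjusted limma p below 0.05 and did not pass an adjusted p of 0.05.

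**Figure D3:**
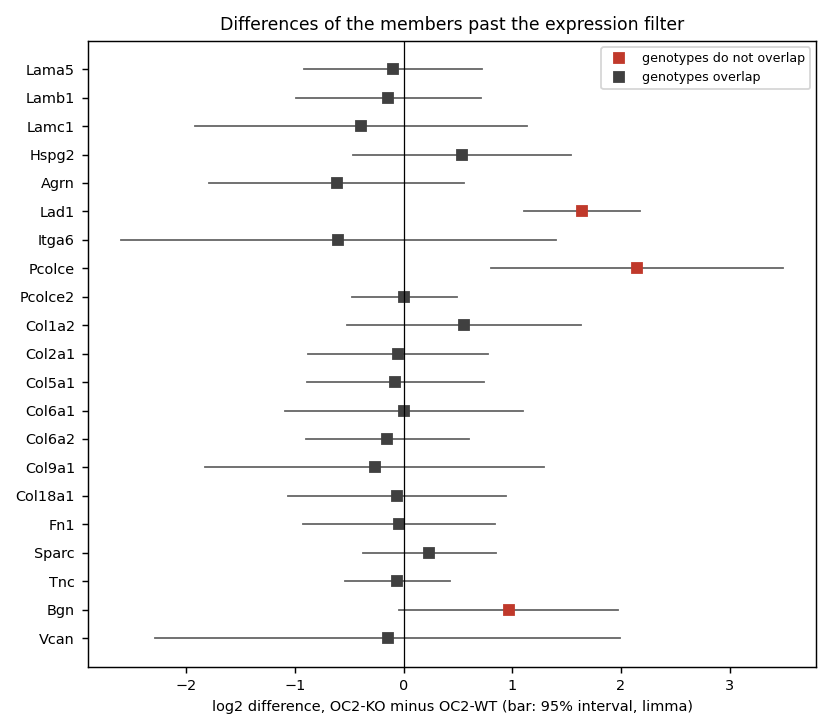
Log2 difference of OC2-KO minus OC2-WT (x axis) with its 95% interval from limma for the 21 members past the filter (rows, n = 3 arrays per genotype), in red where the genotypes did not overlap. The intervals of Lad1 and Pcolce exclude 0, that of Bgn just includes it, and those of the other 18 include it.

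Of the linkers, Hspg2, which encodes the heparan sulfate proteoglycan perlecan, read 9.14, 7.97 and 8.95 in OC2-KO and 7.95, 7.65 and 8.85 in OC2-WT. OC2-KO was higher in all 3 pairs, by 1.19, 0.33 and 0.09, but the genotypes overlapped and the difference was 0.54 (95% interval -0.46 to 1.54). Agrn, which encodes agrin, a proteoglycan best known for clustering receptors at the neuromuscular synapse, read 8.15, 9.57 and 8.89 in OC2-KO and 8.68, 9.48 and 10.30 in OC2-WT. OC2-WT replicate 3 was the highest array, and the difference was -0.62 (95% interval -1.79 to 0.56), or -0.21 without that array. The nidogens, which bridge laminin and collagen IV, did not pass the filter on Nid1 or Nid2.

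Among the glycoproteins, Sparc, which encodes a collagen-binding matricellular protein, read 11.67, 11.74 and 12.21 in OC2-KO and 11.36, 11.60 and 11.96 in OC2-WT. OC2-KO was higher in all 3 pairs by a small amount, and the genotypes overlapped at a difference of 0.24 (95% interval -0.38 to 0.85). The other Sparc probe set past the filter differed by 0.15. Tnc, which encodes tenascin-C, an adhesion-modulating protein induced in injured tissue, read 8.33, 8.67 and 8.51 in OC2-KO and 8.64, 8.59 and 8.45 in OC2-WT. The arrays were interleaved, and the difference was -0.06 (95% interval -0.54 to 0.42). Fn1, which encodes fibronectin, the cell-binding glycoprotein of plasma and provisional matrix, differed by -0.04 (95% interval -0.92 to 0.84). The 95% interval lay within 1 log2 unit of 0 on both sides for 9 of the 21 members past the filter, and reached beyond it for the other 12.

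Over the 21 members the median difference was -0.06, and 8 (38.1%) had a positive difference, beside a median of -0.00482 and 48.8% over all genes tested. The median changed sign with single arrays. It was 0.31 without OC2-KO replicate 1 (20 of 23 members higher in OC2-KO) and 0.17 without OC2-WT replicate 3 (14 of 21 higher). Without OC2-KO replicate 2 it was -0.22 and without OC2-WT replicate 1 it was -0.30. The filter was applied again each time, so the members counted could differ. Over all genes tested the median deviation from the genotype mean was -0.0244 on OC2-KO replicate 1 and 0.00264 on OC2-WT replicate 3. By pair, 6 members were higher in OC2-KO in all 3 pairs (Lad1, Pcolce, Bgn, Col1a2, Hspg2 and Sparc), against 10.9% of all genes tested. Of these, Lad1 and Bgn passed the filter through OC2-KO alone, and members were chosen with earlier results known. The count is therefore a description and no test. Lower in all 3 pairs was 1 member, Col9a1, against 12.1% of all genes tested. With an array, or both arrays of a number, left out, the difference changed sign for 14 of the 21 members and did not for Hspg2, Agrn, Lad1, Pcolce, Col1a2, Sparc and Bgn.

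**Figure D4:**
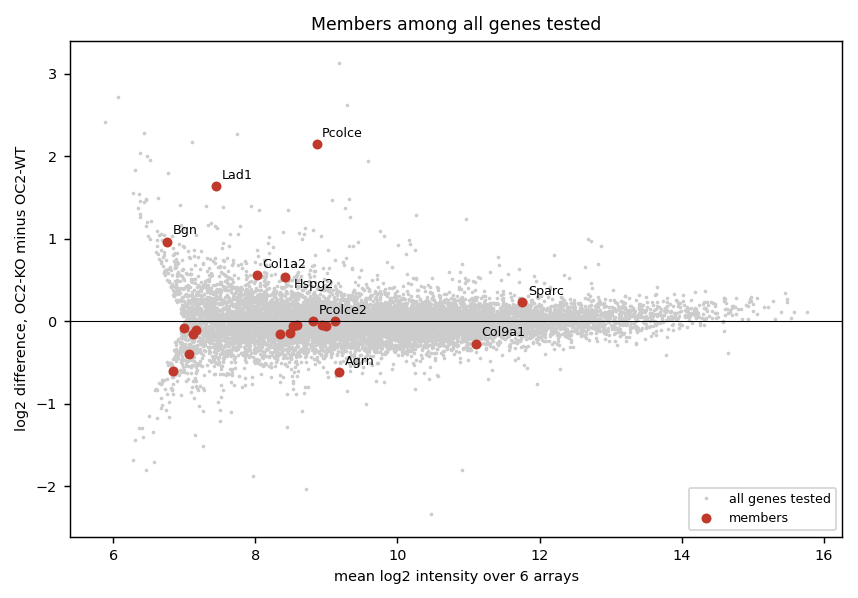
Log2 difference of OC2-KO minus OC2-WT (y axis) against mean log2 intensity over the 6 arrays (x axis) for all 11065 genes tested (grey) and the 21 members past the filter (red, some named). Pcolce, Lad1 and Bgn lie at 2.15, 1.64 and 0.97, and the other members at 0.56 or lower.

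The members varied between arrays of a genotype more than a typical gene, but their median level was lower, at 8.48 against 9.62 log2 units. The spread was not compared with genes of matched level. The median SD over the 21 members was 0.48 in OC2-KO and 0.54 in OC2-WT, beside 0.30 and 0.27 over all genes tested. Replicate 1 gave the lowest value of its genotype for 15 of 21 members in OC2-KO and 15 of 21 in OC2-WT, beside 38.4% and 37.6% of all genes tested. OC2-WT replicate 3 gave the highest for 15 of 21, beside 36.8%. The median deviation from the genotype mean was -0.46, 0.28 and 0.20 on the OC2-KO arrays and -0.56, 0.05 and 0.38 on the OC2-WT arrays.

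**Figure D5:**
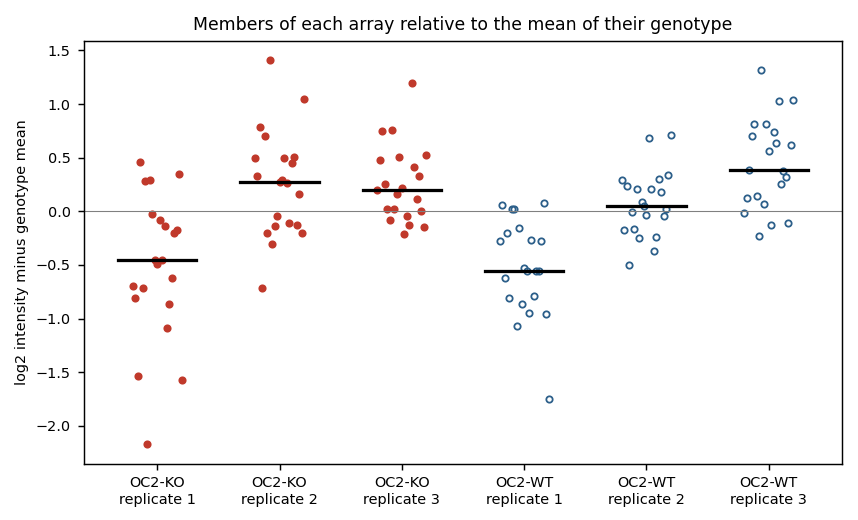
Log2 intensity minus the mean of the genotype (y axis) for the 21 members past the filter on each array (x axis, OC2-KO arrays filled and OC2-WT arrays open), with the median as a bar. The medians of replicate 1 are -0.46 in OC2-KO and -0.56 in OC2-WT.

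The array medians ran over 98.2 to 110 in linear intensity in OC2-KO and 94.9 to 110 in OC2-WT. The ratio of 3' to 5' signal of Actb, a measure of RNA integrity, was 1.41, 0.74 and 3.39 log2 units in OC2-KO and 1.11, 0.71 and 2.95 in OC2-WT, so replicate 3 stood apart in both genotypes. Unpaired, a two-sided exact permutation test of that ratio gave p = 0.6 (smallest possible 0.1). Within pairs the OC2-KO array had the higher Actb ratio by 0.30, 0.03 and 0.44. The same ratio for Gapdh differed by 0.18, -0.03 and 0.26. The part of RNA integrity in the results was not tested. In whole retina, fewer cells of a type and less RNA per cell cannot be told apart, and marker genes of cell types that make matrix or lie beside the retina were therefore summed on each array. The 9 markers of microglia and macrophages summed to 3519 to 4461 in OC2-KO and 2667 to 3205 in OC2-WT. Of those past the filter, 6 of 6 had a higher mean in OC2-KO, but Tmem119 passed through OC2-KO alone (7.02 against 6.18). The 9 markers of cornea and ciliary epithelium, epithelial tissue of the kind in which LAD1 is known, summed to 3993 to 4831 in OC2-KO and 1998 to 3696 in OC2-WT. The keratin Krt18, at a difference of 0.68, made up 77.7% to 85.4% of that sum in OC2-KO and 77.6% to 80.7% in OC2-WT, and without it the sums overlapped at 705 to 891 in OC2-KO and 447 to 715 in OC2-WT. The other keratins of the list differed by 0.06 (Krt8), 0.12 (Krt5), -0.38 (Krt14), -0.79 (Krt19) and 0.95 (Krt12), of which only Krt8 passed the filter. Its markers other than keratins were all higher in OC2-KO, with Aldh3a1 at 1.62, Epcam at 0.68 and Cdh1 at 0.59. Of these only Epcam passed the filter, through OC2-KO alone (7.49 against 6.80). Within pairs the sum of the whole list was higher in OC2-KO, at ratios of 1.31, 2.03 and 1.43.

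The 8 markers of the retinal pigment epithelium summed to 18993 to 77921 in OC2-KO and 32932 to 92624 in OC2-WT, with 0 of 7 past the filter higher in OC2-KO and the sum lower in all 3 pairs. The 5 astrocyte markers on the array summed to 3372 to 6597 in OC2-KO and 3414 to 5105 in OC2-WT. Of these, 5 of 5 had a higher mean in OC2-KO, with Gfap at 1.40 (unadjusted limma p 0.0247). The others differed less, with Pdgfra at 0.28, Aldh1l1 at 0.24, S100b at 0.03 and Aqp4 at 0.02. Gfap had been named by the study on these arrays, and its antibody staining showed more GFAP in processes of Müller glia. The 10 Müller glia markers, Aqp4 among them, overlapped at 55410 to 76995 in OC2-KO and 54085 to 72991 in OC2-WT, with 5 of 10 higher in OC2-KO. The 10 endothelial markers overlapped at 2267 to 4274 in OC2-KO and 1937 to 3734 in OC2-WT, and the 10 pericyte and smooth muscle markers at 1495 to 2252 in OC2-KO and 1309 to 1849 in OC2-WT. Within pairs both sums were higher in OC2-KO in 3 of 3, at ratios of 1.17, 1.14 and 1.07 for endothelium and 1.14, 1.26 and 1.22 for pericytes and smooth muscle. The 11 fibroblast markers overlapped at 2660 to 3813 in OC2-KO and 2232 to 4418 in OC2-WT, and their sum was higher in OC2-KO in 2 of 3 pairs. The 9 lens markers ran over 31719 to 50308 in OC2-KO and 5223 to 58892 in OC2-WT, lowest in OC2-WT replicate 3. The 6 markers of horizontal cells, in which Onecut2 is known to act, summed to 7589 to 10605 in OC2-KO and 12433 to 14973 in OC2-WT. On mean log2 intensity, two-sided exact permutation tests gave p = 0.2 for microglia and macrophages, 0.3 for cornea and ciliary epithelium, 0.5 for retinal pigment epithelium, 0.5 for astrocytes and 0.1 for horizontal cells, the smallest possible. The part of any of these lists in Lad1, Pcolce or Bgn was not tested.

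Further genes of matrix assembly, turnover and sensing, 139 in 8 lists chosen with earlier results of these data known, were examined in the same fit. Of these, 130 were on the array and 84 passed the filter, with 37 higher in OC2-KO and a median difference of -0.05. None passed an adjusted p of 0.05, and 2 had an unadjusted p below 0.05. Both were higher in OC2-KO, against 0.732% of all genes tested, and 0 were lower, against 0.253%. One was A2m, which encodes the broad protease inhibitor alpha-2-macroglobulin and is known in Müller glia. A2m read 9.56, 10.44 and 9.44 in OC2-KO and 7.55, 8.40 and 9.07 in OC2-WT. OC2-WT replicate 3 was again nearest to OC2-KO, and the difference was 1.47 (unadjusted limma p 0.0125). The other was Cd44, the hyaluronan receptor, which read 8.49, 9.72 and 8.59 in OC2-KO and 8.13, 8.34 and 7.07 in OC2-WT. The genotypes did not overlap and the difference was 1.08 (unadjusted limma p 0.0486). Cd44 had been named by the study on these arrays and is not independent evidence.

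With the replicate block 5 of these 84 genes had an unadjusted p below 0.05, and none passed an adjusted p of 0.05. Of the 5, 4 were higher in OC2-KO, against 2.15% of all genes tested, and 1 was lower, against 1.38%. A2m and Cd44 were joined by Ccn1, a matricellular growth regulator, at 0.91 and Fmod, the collagen-binding proteoglycan fibromodulin, at 0.69, and Tnr, which encodes the nervous system glycoprotein tenascin-R, was lower at -0.80. Tnr read 7.61, 8.90 and 8.53 in OC2-KO and 8.93, 9.49 and 9.02 in OC2-WT. All OC2-KO arrays were lower than all OC2-WT arrays. The elastic fibre gene Eln differed by 0.49.

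The lists closest to procollagen processing held smaller differences. Among 9 measured enzymes of collagen biosynthesis, which hydroxylate, fold and cross-link the chains, 5 were higher in OC2-KO and the range was -0.20 to 0.13. The 3 with the smallest p were P4ha2 at -0.20, P4hb at 0.12, both of prolyl hydroxylase, and the lysyl hydroxylase gene Plod1 at -0.10. Among 8 matrix proteases the range was -0.19 to 0.20, with Adamts1 at 0.20, Mmp9 at -0.17 and Adamts5 at -0.19. Beside A2m, the inhibitors Reck and Timp2 differed by -0.34 and -0.08. Among 17 receptors 5 were higher in OC2-KO, and beside Cd44 the integrin gene Itgb8 differed by -0.52 and the syndecan gene Sdc2 by 0.28.

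Among 8 further collagens and laminin genes, Col25a1 and Col19a1 differed by 0.46 and 0.54 and Col8a2 by -0.38, with overlapping genotypes. Of 10 further proteoglycans, Fmod aside, Gpc3 and Ncan differed by -0.33 and -0.24. Of 13 genes of TGF-beta signalling, a pathway that induces fibrillar collagens in many tissues, 6 were higher in OC2-KO. Its members with the smallest p were the co-receptor gene Tgfbr3 at -0.46 and the signal transducers Smad3 at -0.24 and Smad2 at 0.22.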

How the data were processed

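Retinal RNA of 3 OC2-KO and 3 OC2-WT samples was amplified, biotin-labelled and hybridised by the authors, 1 array per sample. The deposited values were linear intensities of 45101 probe sets that the authors made with MAS5 (version not given in the sources used here) and scaled so that every array had the same 2% trimmed mean, 500, so a change common to the whole array is invisible. Gene symbols were those of the platform table (34945 probe sets with 1 symbol, 932 with several, 9160 with none). Intensities were log2 transformed and 64 control probe sets dropped. Following the study's methods, only the 21176 probe sets with a genotype mean above 7 were used. Genotypes were compared in limma 3.58.1 (lmFit, eBayes; R 4.3.3), two-sided and unpaired, and p-values were adjusted over those 21176 by Benjamini-Hochberg. Sums and counts were made in Python 3.11.15, and the fit was tested on simulated data.

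Replicate numbers came from the sample titles. Deviations from the genotype means of same-numbered arrays correlated at 0.58, 0.59 and 0.58 over 21176 probe sets, and those of other arrays at -0.43 to -0.13. The numbers were therefore taken to pair the arrays, and a fit with the replicate block was given beside the unpaired one. Over the 21 members past the filter, same-numbered arrays correlated at 0.15, 0.58 and 0.12 and other arrays at -0.39 to 0.12. Among these members the pairing was thus weak for numbers 1 and 3.

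Members and lists were chosen with earlier results of these data known. Every member was named, values on each array were given for members past an unadjusted p of 0.05, those without overlap and up to 2 per role with the smallest p, and up to 3 genes per further list were named. The values of Lama2, of second probe sets and of single marker genes were added after they were seen. Alternatives were quantile normalization or median centring, the filter dropped or set at 8, a floor of 6, an intensity trend, the methods' t-test, other picks of probe set and leaving out arrays. Detection calls and scanner output were not used here.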

Additional observations from a re-analysis of the deposited data

How the results depend on the processing

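The counts, the median and the differences of the 16 members given in full were recomputed under up to 20 alternatives (17 to 20 for a single member, as not every one left it a measured probe set), of which 3 were chosen after seeing the data (leaving out replicate 1 or 2 of both genotypes, and the replicate block with an intensity trend). No member passed an adjusted p of 0.05 under any of them, and the lowest adjusted p was 0.18, for Lad1. The difference of Lad1 ran over 1.50 to 1.75 with an unadjusted p below 0.05 in 20 of 20 alternatives, and that of Pcolce over 1.47 to 2.81 in 19 of 19, as no Pcolce probe set had the plain suffix. Bgn ran over 0.32 to 1.35 and was below 0.05 in 6 of 19. The replicate block, which pairs the arrays by number, gave 0 members past an adjusted p of 0.05, and 3 past an unadjusted p of 0.05, or 4 when an intensity trend was added, against 3.54% of all genes. Without a filter 16 of 38 members were higher in OC2-KO, against 51.3% of all genes, and 3 had an unadjusted p below 0.05, against 2.25%, with Lama2, lower in OC2-KO, beside Lad1 and Pcolce. The methods' t-test gave 2 members with an unadjusted p below 0.05, Lad1 and Pcolce, against 1.62% of all genes, and 0 after Benjamini-Hochberg adjustment. With plain-suffix probe sets 1 of 17 members had an unadjusted p below 0.05, against 1.08% of all genes, since the Pcolce probe sets were not among them. Median centring gave Pcolce2 a difference of -0.0035.

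Leaving out 1 array, or 1 number of both genotypes, gave 3 to 6 members without overlap, against 9.04% to 22.2% of all genes. Genes without overlap on 6 arrays stay so on fewer, so this range is no sign of stability. It gave 6 to 20 members higher in OC2-KO and a median difference of -0.30 to 0.31. Among the 16 members given in full it turned the sign of 9, whose differences ran over -0.40 to 0.29 for Lamb1, -0.78 to 0.38 for Lamc1, -1.31 to 0.50 for Itga6, -0.0727 to 0.12 for Pcolce2, -0.35 to 0.0324 for Col5a1, -0.47 to 0.23 for Col6a2, -0.87 to 0.27 for Col9a1, -0.14 to 0.0682 for Tnc and -1.02 to 0.64 for Vcan. These ranges cover only the cases in which the member passed the filter, which was applied again each time. Col5a1 did not pass it without OC2-WT replicate 2, or without replicate 2 of both genotypes. The Col5a1 differences in those cases were 0.26 and 0.12, both above its range. Lad1 and Pcolce kept an unadjusted p below 0.05 without any single array. The cause of these changes was not tested. With 3 arrays per genotype no test of a single value can pass 0.05 by permutation (smallest p 0.1), and 17 members did not pass the filter.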
